A study of Mus musculus with 22 samples.

Results

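The genes described are 41 lysosomal genes: acid hydrolases with their activator proteins and lipid carriers, proteins of the lysosomal membrane, and subunits of the proton pump that acidifies the organelle. They were chosen by name, and each gene was read from the array probe annotated with its symbol, taking its brightest probe across the 22 samples where a gene had several. Of the 41, 40 had a named probe among 22485 genes on the array, and all 40 were measured in every sample. Atp6v0c, a proteolipid subunit of the pump, matched no named probe and has no value here. The 40 genes fell into 11 glycosidases, 5 sulfatases, 7 lipid hydrolases, activators and lipid carriers, 6 membrane proteins, 7 proton pump subunits, and 4 others (2 peptidases, 1 acid phosphatase and progranulin).

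Lysosomes receive cargo from endocytosis, phagocytosis and autophagy and break it down with hydrolases that work at acid pH. The pump, the vacuolar ATPase, has a soluble V1 part that hydrolyses ATP and a membrane V0 part that carries protons into the lumen. Microglia, the phagocytes of the brain, take up amyloid deposits and dying cells, and inherited loss of many of these hydrolases causes storage disorders that affect the brain.

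The samples were microglia and astrocytes sorted from the cortex of APPswe/PS1dE9 mice (APP/PS1 below) and wild-type (WT) littermates, all 15 to 18 months old and labelled C57BL/6. APP/PS1 mice carry mutant APP and PS1 transgenes and deposit amyloid in the cortex. All mice were perfused, and their cortex was dissociated with papain and depleted of myelin; microglia were then sorted as CD11b+/CD45+ cells and astrocytes as GLT1+/CD11b- cells, with the O4- gate named for both. Each genotype had 7 samples of microglia and 4 of astrocytes, which the submitters call biological replicates; each of 11 dual-colour arrays held the APP/PS1 and WT samples of 1 number, with dyes that changed sides between arrays. In this line the transgenes are driven by prion protein promoter elements, which are active mainly in neurons of the brain.

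Both labels were met by the means over their marker lists, though not by every marker. Mean signal over the microglia markers was 14.48 to 15.01 (log2) in WT microglia and 7.19 to 8.39 in WT astrocytes, and over the astrocyte markers 6.47 to 8.05 and 14.74 to 15.0. By limma (adjusted p under 0.05), 17 of 18 microglia markers were lower in WT astrocytes than in WT microglia. The exception was Itgam, which encodes CD11b (-0.44 ± 0.23), and Siglech differed by only -0.68 ± 0.20. WT astrocyte samples also held endothelial markers (12.36 to 13.23) and mural cell markers (10.09 to 12.21). Mean signal over the oligodendrocyte markers was 7.83 to 8.81 in WT microglia and 5.81 to 6.41 in WT astrocytes. Column medians lay between 6.24 and 6.26 in all 22 samples, and of 43020 probes, 32045 to 40771 were measured in microglia and 42427 to 42869 in astrocytes. Of the 40 lysosomal genes, all 40 had a mean signal above that of the median gene and 33 above the upper quartile, and 0 came within 0.5 (log2) of the highest value, which all columns shared.

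Many lysosomal genes carry an E-box element in their promoter, TCACGTG or its reverse complement CACGTGA, the type of sequence that factors of the MiT/TFE family, TFEB among them, are known to bind. RefSeq promoter sequence (GRCm38.p6, 250 bases before to 50 after the transcription start) was at hand for 34 of the 40 genes. Read on both strands, 13 of 34 (38.2%) held the 7-base element, against 4.29% of 27025 genes with a RefSeq promoter of that length (3.77% of 32851 promoters). The palindrome TCACGTGA, which contains it, was in 6 of 34 (17.6%), against 1.12% of genes and 0.974% of promoters. The 8 stretches printed run 5′ to 3′ on the gene's own strand and end before or at the start site, with each match in capitals. They are shown because they belong to genes that changed between genotypes in one or both cell types, in either direction.
Glb1, chr9:114400984-114401077, plus strand: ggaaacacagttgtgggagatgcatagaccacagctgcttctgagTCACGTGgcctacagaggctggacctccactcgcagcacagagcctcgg
Naglu, chr11:101069975-101070071, plus strand: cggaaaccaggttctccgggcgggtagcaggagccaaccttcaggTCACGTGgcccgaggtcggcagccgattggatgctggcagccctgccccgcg
Atp6v1a, chr16:44139340-44139436, minus strand: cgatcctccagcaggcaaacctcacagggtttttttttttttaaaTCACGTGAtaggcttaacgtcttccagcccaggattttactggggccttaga
Mcoln1, chr8:3500402-3500498, plus strand: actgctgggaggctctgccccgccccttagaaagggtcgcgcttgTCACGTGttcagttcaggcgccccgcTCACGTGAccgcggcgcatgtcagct
Gaa, chr11:119267777-119267873, plus strand: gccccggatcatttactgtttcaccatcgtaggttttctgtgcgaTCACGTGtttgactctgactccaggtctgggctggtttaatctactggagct
Cln3, chr7:126583334-126583430, minus strand: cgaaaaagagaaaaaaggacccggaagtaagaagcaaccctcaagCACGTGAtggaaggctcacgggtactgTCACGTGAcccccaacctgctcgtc
Gla, chrX:134601182-134601255, minus strand: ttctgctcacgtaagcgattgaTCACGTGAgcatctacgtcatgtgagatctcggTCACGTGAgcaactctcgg
Lgmn, chr12:102439093-102439187, minus strand: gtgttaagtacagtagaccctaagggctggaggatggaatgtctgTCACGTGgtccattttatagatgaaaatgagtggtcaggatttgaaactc
Glb1, Naglu and Atp6v1a had the 3 largest rises in microglia, and Lgmn and Gla the largest falls there; Gaa and Cln3 were among the genes that fell in astrocytes, and Mcoln1 did both. Among the 13 genes with the element, 4 rose, 4 fell and 5 did not pass the test in APP/PS1 microglia. Among the 21 genes without it in this window, 8 rose, 4 fell and 9 did not pass. In astrocytes the counts were 10 falls among 13 with the element and 11 falls among 21 without. A match is a sequence description only.

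In WT samples the lysosomal genes differed between the cell types, and more of them had the higher signal in microglia. By limma with Benjamini-Hochberg adjustment over all genes, 27 of 40 differed (67.5%), against 53.3% of all genes tested; 21 were lower and 6 higher in astrocytes, where all genes had 18.0% lower and 35.3% higher. The median over the 40 genes was -0.58 (log2, astrocytes minus microglia), against 0.34 over all genes. In 21 of 40 genes the 7 microglia and 4 astrocyte samples did not overlap, against 50.3% of all genes. All 40 genes lay above the median gene, and the shares among such genes alone are not given here.

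The widest gaps toward microglia were in Man2b1, Lgmn and Grn. Man2b1, the lysosomal α-mannosidase, was at 14.06 to 14.69 in WT microglia and 9.84 to 10.26 in WT astrocytes, a difference of -4.38 ± 0.16 (log2, SE). Lgmn, the asparagine endopeptidase legumain, lay at 15.59 to 17.09 against 12.85 to 13.2, and Grn, encoding progranulin, at 14.12 to 14.5 against 10.76 to 11.18. No WT microglia sample came near the astrocyte range in any of these 3 genes. Hexa (the α subunit of β-hexosaminidase), Naglu (α-N-acetylglucosaminidase of heparan sulfate breakdown) and Npc2 (a soluble cholesterol carrier) were 5.27-fold, 4.57-fold and 4.53-fold lower in astrocytes.

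In the other direction stood acid sphingomyelinase, Smpd1, with 12.23 to 12.51 in WT microglia and 15.07 to 15.46 in WT astrocytes, 7.69-fold higher in the latter. Gaa, the acid α-glucosidase that degrades glycogen, was 3.05-fold higher in astrocytes, and the pump's membrane subunit Atp6v0e 2.03-fold higher. Mcoln1, the lysosomal cation channel, was 1.63-fold higher. Lamp1 and Atp6v1h completed the 6 genes higher in astrocytes, with differences of 0.40 ± 0.12 and 0.94 ± 0.28. Cell type and slide cannot be told apart, since microglia lay on slides 1 and 2 and astrocytes on slide 3. With slide as a random block 20 of 40 genes passed, 16 lower and 4 higher. That fit cannot separate the 2 either, since no slide held both cell types. As an alternative, each sample was centred on its median over the 16310 genes measured in all samples. This moved the median of all genes from 0.34 to -0.08 and the Lamp1 difference from 0.40 to -0.07. The calls over all genes went from 7900 higher and 4040 lower to 6171 and 6916.

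**Figure D1:**
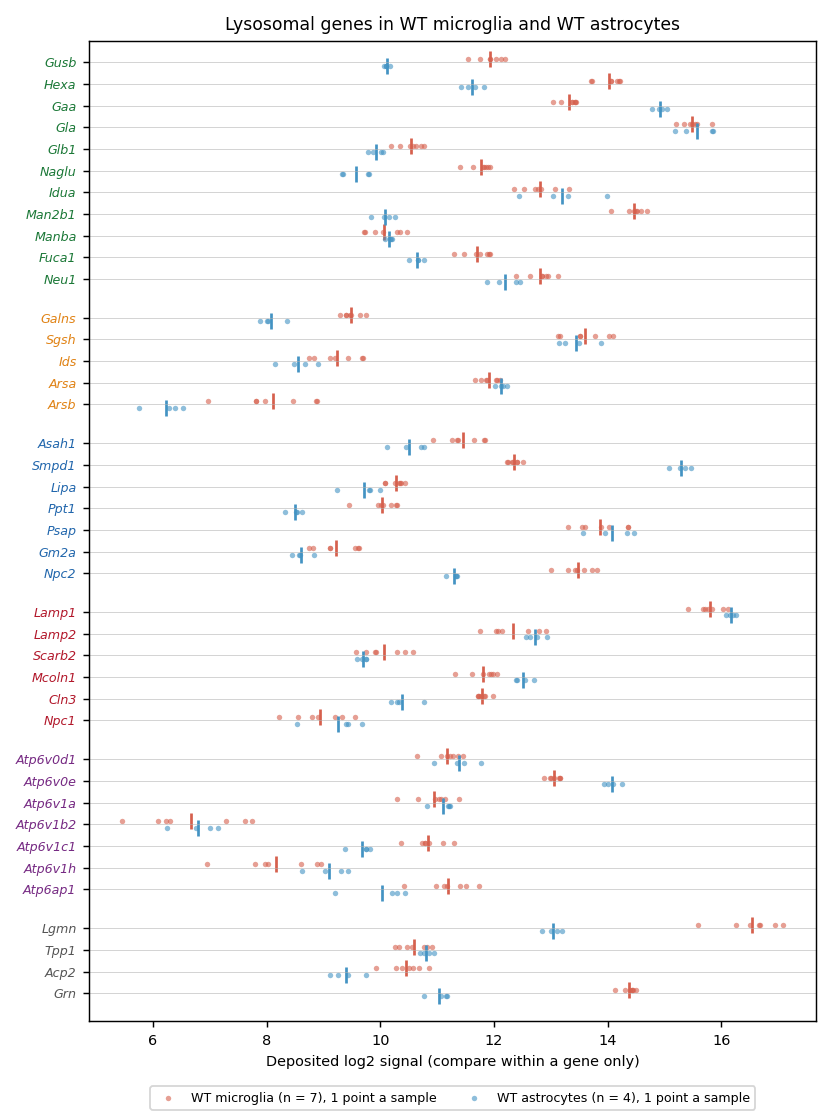
Signal of the 40 lysosomal genes in WT samples, by gene class (y axis), as deposited log2 signal (x axis); each point is a sample (7 microglia in red, 4 astrocytes in blue) and each vertical tick a group mean. Man2b1, Lgmn and Grn stand far higher in microglia and Smpd1 far higher in astrocytes, while genes such as Gla and Sgsh overlap.

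In APP/PS1 microglia the lysosomal genes split: several hydrolases, lipid-handling proteins and pump subunits rose, and a smaller set of hydrolases fell. By limma, with each array as a block, 22 of 40 genes (55.0%) passed an adjusted p of 0.05, against 19.7% of 22395 genes; 14 rose (35.0%, against 8.27%) and 8 fell (20.0%, against 11.4%). When only genes above the median gene were tested, 25 of 40 passed, beside 41.8% of 11240 genes. Of the 40, 17 were higher and 8 lower, beside 16.4% and 25.4%, so falls were no more frequent than among such genes. The median over the 40 genes was 0.14, against -0.04 over all genes. Cell type markers moved as well. Of the microglia markers 2 of 18 rose and 8 fell (median -0.53), of the perivascular macrophage and monocyte markers 0 of 9 rose and 7 fell (-0.96), of the astrocyte markers 1 of 15 rose and 9 fell (-0.82), and of the neuron markers 0 of 12 rose and 6 fell (-0.43). Mean signal over the macrophage and monocyte markers was 8.66 to 10.49 in WT and 8.42 to 9.22 in APP/PS1 microglia, and over the astrocyte markers 6.47 to 8.05 and 5.86 to 7.33. Their part in the lysosomal values was not tested. In bulk samples, fewer cells of a type and less RNA per cell cannot be told apart.

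Glycosidases held the largest rise. Glb1, the β-galactosidase that acts on gangliosides and keratan sulfate, ranged from 10.18 to 10.77 in WT microglia (median 10.58) and from 11.28 to 11.67 in APP/PS1 microglia (median 11.51). The 2 groups did not overlap, and the signal was higher on 7 of 7 arrays, by 1.00 ± 0.07 (log2, SE; 2.00-fold, adjusted p = 9.51e-06). Fuca1, the α-L-fucosidase, went from 11.29, 11.75 and 11.93 (lowest, median and highest in WT) to 11.99, 12.25 and 12.43. Again no APP/PS1 sample fell within the WT range, and the rise was 0.54 ± 0.06 (adjusted p = 0.000205). Hexa, needed for ganglioside breakdown, ran from 13.71 to 14.21 in WT (median 14.05) and from 14.2 to 14.75 in APP/PS1 (median 14.54), so the groups met at their edges. Its rise was 0.53 ± 0.09 (adjusted p = 0.00244), on 7 of 7 arrays.

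Naglu rose by 0.71 ± 0.07 with no overlap between groups, and Gusb, β-glucuronidase, by 0.58 ± 0.07. Gaa also had separate groups in microglia, 13.04 to 13.45 in WT and 13.48 to 13.66 in APP/PS1, but its difference of 0.28 ± 0.09 did not pass (adjusted p = 0.0622). A dimmer Gaa probe gave 0.63 ± 0.10 and passed. The 4 genes with separate groups, Gaa, Glb1, Naglu and Fuca1, were all higher in APP/PS1; 2.85% of all genes had separate groups in that direction.

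The other side of the glycosidases fell. Gla, α-galactosidase A, changed by -0.52 ± 0.10, Idua, α-L-iduronidase, by -0.33 ± 0.08 and Neu1, a sialidase, by -0.29 ± 0.07. All 3 calls were lost without the array as a block. They were also lost without the arrays whose samples differed by over 2 (log2) in the Y-linked gene Eif2s3y, a fit with fewer arrays. A second, dimmer probe of Idua gave -0.02 ± 0.06, so its fall was seen with 1 of its 2 probes. The α- and β-mannosidases Man2b1 and Manba did not pass, at -0.16 ± 0.08 and 0.19 ± 0.09.

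All 5 sulfatases, which remove sulfate groups from glycosaminoglycans and sulfolipids, passed in microglia, 2 up and 3 down, each with a difference under 0.4 in size. Galns, which acts on keratan sulfate, was at 9.29 to 9.75 in WT (median 9.46) and 9.44 to 9.96 in APP/PS1 (median 9.61), a rise of 0.20 ± 0.06. Arsb, arylsulfatase B of dermatan sulfate breakdown, ranged from 6.96 to 8.88 (median 7.97) and from 7.73 to 8.99 (median 8.34), a rise of 0.37 ± 0.10. For both, the groups overlapped over most of their range, and 6 of 7 arrays had the higher signal in APP/PS1.

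Ids, the iduronate sulfatase, ran from 8.75 to 9.7 in WT (median 9.2) and from 8.33 to 9.29 in APP/PS1 (median 8.85), a difference of -0.32 ± 0.09. Arsa, which degrades sulfatide, lay at 11.66 to 12.1 and 11.5 to 12.01 (medians 11.88 and 11.65), with -0.20 ± 0.06. Sgsh, the heparan sulfamidase, lay at 13.12 to 14.09 and 12.8 to 13.64 (medians 13.51 and 13.36), with -0.25 ± 0.07. Its APP/PS1 signal was lower on only 4 of 7 arrays, and these were the arrays with APP/PS1 in Cy3 (-0.84 to -0.71). Arrays with APP/PS1 in Cy5 had 0.14 to 0.40 for Sgsh. Its dimmer probe gave -1.10 ± 0.07, a much larger fall. All 5 sulfatase calls were lost when single arrays were left out, in 5 to 7 of 7 cases each.

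Lipid-handling proteins rose or did not pass; none fell. Npc2 had 13.01 to 13.81 in WT microglia (median 13.46) and 13.77 to 14.25 in APP/PS1 (median 14.16), with 0.60 ± 0.06 (adjusted p = 0.000189). The lowest APP/PS1 sample lay just below the highest WT sample, and 7 of 7 arrays had the higher signal in APP/PS1. Gm2a, the ganglioside activator that presents substrate to β-hexosaminidase, went from 8.74, 9.11 and 9.63 to 9.36, 9.7 and 10.22 (lowest, median, highest), by 0.56 ± 0.08. Ppt1, the thioesterase that removes fatty acids from proteins, rose by 0.56 ± 0.07. Smpd1 ran from 12.23 to 12.51 (median 12.33) and from 12.04 to 12.26 (median 12.12), and its difference of -0.21 ± 0.09 did not pass. Psap, the precursor of the saposin activators, overlapped throughout (13.31 to 14.36 and 13.28 to 14.19, medians 13.89 and 13.42), and Lipa and Asah1 did not pass at 0.40 ± 0.16 and -0.03 ± 0.13.

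Of the 6 membrane proteins only Mcoln1 passed in microglia. Its signal was 11.32 to 12.05 in WT (median 11.91) and 11.77 to 12.31 in APP/PS1 (median 12.07), a difference of 0.27 ± 0.07 on 7 of 7 arrays. Lamp2, a major glycoprotein of the membrane also needed for autophagy, overlapped broadly, 11.75 to 12.92 and 12.06 to 12.89 with medians of 12.14 and 12.47, and did not pass at 0.18 ± 0.08; its second probe gave 0.55 ± 0.09 and passed. Npc1, which exports cholesterol with Npc2, had 8.22 to 9.56 and 8.3 to 9.14 (medians 8.9 and 8.65). Cln3, a membrane protein lost in juvenile neuronal ceroid lipofuscinosis, had nearly the same range in both, 11.71 to 11.98 and 11.66 to 11.93, with a fitted -0.01 ± 0.06 and 3 probes between -0.01 and 0.03.

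Among pump genes 3 of 7 rose and none fell. Atp6v1a, the catalytic subunit of the V1 part, ran from 10.3 to 11.39 in WT (median 11.03) and from 11.28 to 11.77 in APP/PS1 (median 11.58). The APP/PS1 samples lay above 6 of 7 WT samples, and the rise was 0.65 ± 0.07 (1.57-fold, adjusted p = 0.000286), with 0.68 ± 0.08 at a second probe. Atp6v1c1, a stalk subunit of V1, went from 10.36, 10.79 and 11.3 to 11.05, 11.31 and 11.56, by 0.46 ± 0.06. Atp6ap1, an accessory protein of the pump, rose by 0.29 ± 0.09. The membrane-part subunits Atp6v0d1 (10.65 to 11.46 and 10.98 to 11.26, medians 11.22 and 11.13) and Atp6v0e (12.88 to 13.16 and 13.06 to 13.3, medians 13.06 and 13.21) did not pass, nor did Atp6v1b2 at 0.49 ± 0.15 (adjusted p = 0.0515).

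Lgmn had the largest fall of the 40 genes in microglia. WT samples ran from 15.59 to 17.09 (median 16.67) and APP/PS1 samples from 14.73 to 15.94 (median 15.79). The APP/PS1 sample of replicate 7 was lowest, at 14.73 against 15.71 for the next, and the signal was lower on 7 of 7 arrays (-0.89 ± 0.11, 1.85-fold, adjusted p = 0.000336). Acp2, lysosomal acid phosphatase, changed by -0.31 ± 0.10 (9.93 to 10.85 in WT with a median of 10.51, and 9.91 to 10.27 in APP/PS1 with a median of 10.13). Tpp1, a tripeptidyl peptidase (10.25 to 10.91 and 10.15 to 10.77, medians 10.56 and 10.52), and Grn (14.12 to 14.5 and 14.37 to 14.73, medians 14.42 and 14.54) did not pass.

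The microglia counts depended on the pairing and on the number of arrays. Without the array as a block 10 of 40 genes passed (9 higher and Lgmn lower), and leaving out 1 array gave 14 to 17, the lowest without replicate 1 or replicate 4; calls for Galns, Sgsh, Ids, Arsa, Arsb, Mcoln1, Atp6ap1 and Acp2 were each lost in 4 or more of 7 such fits. All 22 called genes had a mean difference of the same sign on slide 1 (4 arrays) and on slide 2 (3 arrays).

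**Figure D2:**
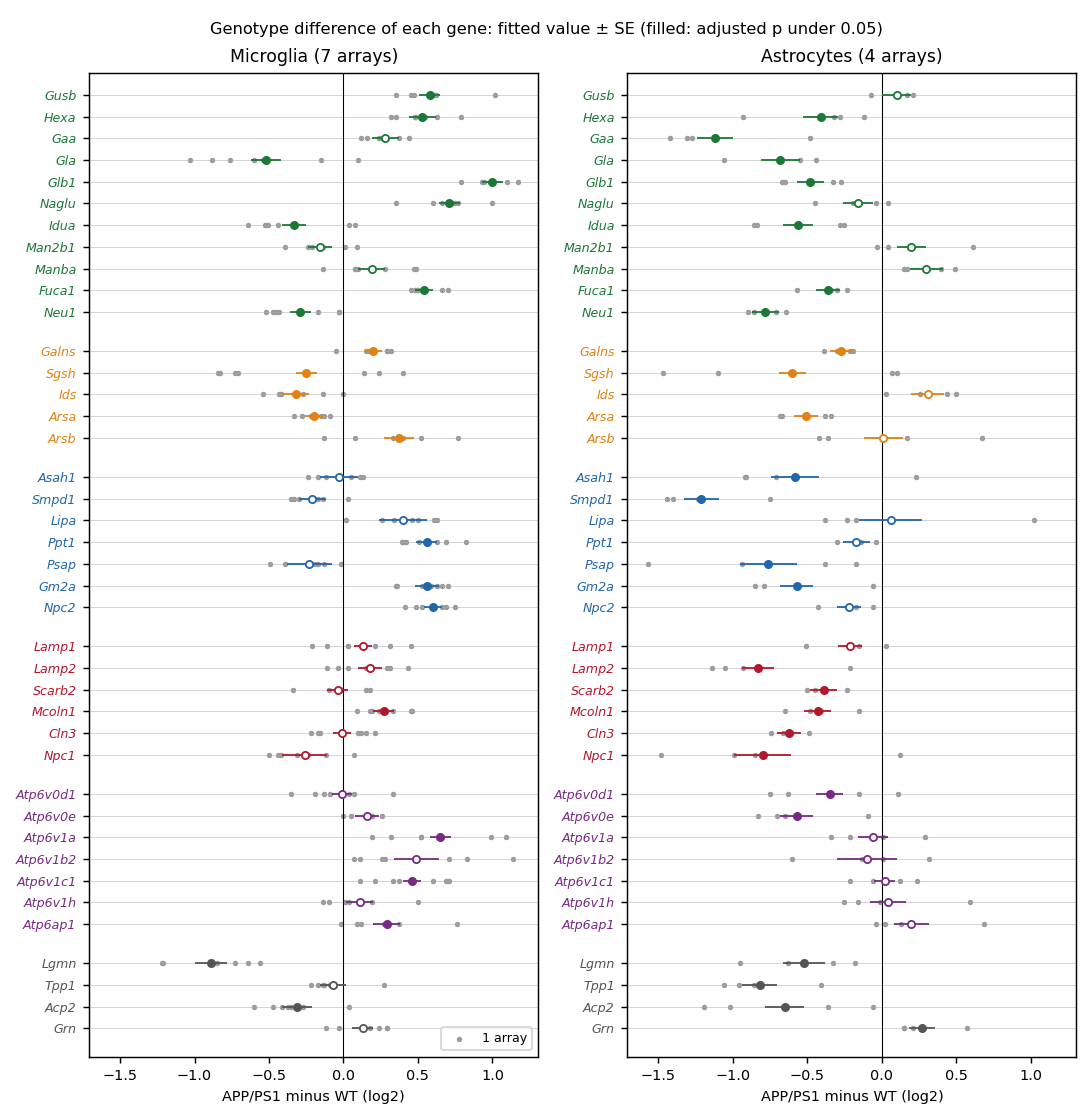
APP/PS1 minus WT (x axis, log2) of each lysosomal gene in microglia (left, 7 arrays) and astrocytes (right, 4 arrays); grey points are single arrays, coloured points the fitted value with its SE, filled where the adjusted p was under 0.05. Microglia hold filled points on both sides of 0, from Glb1 at 1.00 to Lgmn at -0.89, and astrocytes mostly below 0, down to Smpd1 at -1.21.

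In APP/PS1 astrocytes 24 of the 40 lysosomal genes fell, with members of each class among them; the proton pump had 2 of 7, with a median of -0.06. By limma 25 of 40 genes (62.5%) passed, against 33.4% of 22474 genes; 24 fell (60.0%, against 18.0%) and 1 rose (2.50%, against 15.4%). When only genes above the median gene were tested, 29 passed, beside 61.2% of 11242 genes; 26 were lower and 3 higher, beside 33.4% and 27.8%. The median over the 40 genes was -0.40, against -0.07 over all genes. In 12 genes every APP/PS1 sample lay below every WT sample (30.0%, against 11.0% of all genes). Manba was the only one of the 40 with separate groups in the other direction (6.37% of all genes).

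These samples also differed in cell type markers. With genotype, 14 of 15 astrocyte markers fell and 1, Gfap, rose (list median -1.36). Of the microglia markers 14 of 18 rose and 3, Sall1, Siglech and Itgam, fell (1.59). Further, 9 of 11 endothelial markers (1.10) and 7 of 9 mural markers (2.00) rose and 0 of either fell. Of the oligodendrocyte precursor markers 3 of 6 fell and 0 rose (-0.84). The mean over the astrocyte markers was 14.74 to 15.0 in WT and 12.82 to 14.62 in APP/PS1 samples, and over the microglia markers 7.19 to 8.39 and 8.46 to 10.36. By array, the median over the 40 lysosomal genes was -0.47, -0.47, -0.08 and -0.31 for replicates 1 to 4, and the median over the astrocyte markers -2.12, -1.56, -0.36 and -1.56. Replicate 3 had the smallest difference in both. The part of these markers in the lysosomal values was not tested.

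**Figure D3:**
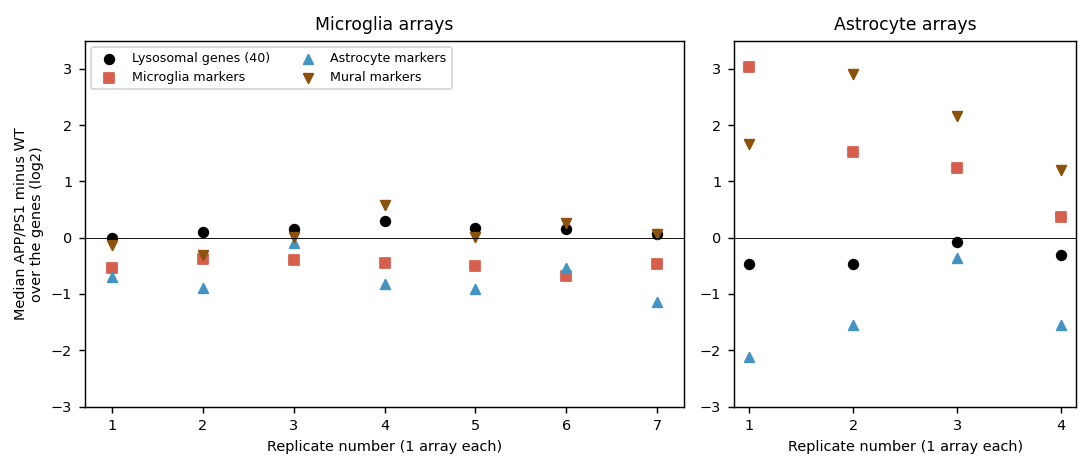
Median APP/PS1 minus WT (y axis, log2) on each array (x axis, replicate number) over the 40 lysosomal genes (black) and over microglia (red), astrocyte (blue) and mural (brown) markers. On astrocyte arrays the lysosomal median was between -0.47 and -0.08 while the astrocyte markers lay between -2.12 and -0.36, and on microglia arrays the lysosomal median was between -0.01 and 0.30.

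Smpd1 had the largest fall. Its 4 WT samples were at 15.07, 15.28, 15.46 and 15.36 and its APP/PS1 samples, in the same order of replicates, at 13.63, 14.05, 14.71 and 13.96. The groups did not overlap, and the difference was -1.21 ± 0.12 (2.31-fold lower, adjusted p = 0.000166). Gaa followed, with 14.78, 15.05, 14.9 and 14.96 in WT and 13.36, 13.79, 14.43 and 13.66 in APP/PS1. Here too the lowest WT sample stood above the highest APP/PS1 sample, at -1.12 ± 0.12 (adjusted p = 0.00023), and the dimmer Gaa probe gave -0.52 ± 0.13. Both genes were among the 6 with higher signal in WT astrocytes than in WT microglia.

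The other glycosidases fell by less or did not pass. Glb1 was at 9.87, 10.05, 10.02 and 9.78 in WT and 9.21, 9.4, 9.75 and 9.45 in APP/PS1, a difference of -0.48 ± 0.09 with no overlap. Hexa was at 11.66, 11.83, 11.54 and 11.42 against 11.34, 10.9, 11.42 and 11.15, with the highest APP/PS1 value just under the lowest WT value and a difference of -0.41 ± 0.12. Fuca1 was at 10.51, 10.76, 10.67 and 10.66 against 10.21, 10.19, 10.44 and 10.33, a difference of -0.36 ± 0.08. Neu1 changed by -0.78 ± 0.09, Gla by -0.68 ± 0.13 and Idua by -0.56 ± 0.10, while Gusb, Naglu, Man2b1 and Manba did not pass, with values from -0.16 to 0.30.

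Of the sulfatases 3 of 5 fell in astrocytes. Arsa was at 12.01, 12.12, 12.23 and 12.15 in WT and 11.33, 11.74, 11.89 and 11.49 in APP/PS1, groups that did not overlap, with -0.51 ± 0.08 (adjusted p = 0.00126). Sgsh read 13.88, 13.5, 13.25 and 13.14 against 12.41, 12.4, 13.32 and 13.24. The split followed the dye. APP/PS1 was lower on replicates 1 and 2, where it was labelled with Cy3 (-1.47 and -1.10). It was slightly higher on replicates 3 and 4, where it was labelled with Cy5 (0.07 and 0.10). The fitted value of -0.60 ± 0.09 averages over both dye orientations. Without the dye term the value was as large (-0.60) but the call was lost. Galns read 8.03, 7.89, 8.35 and 8.01 against 7.84, 7.5, 8.14 and 7.71, a small step on every array (-0.27 ± 0.08). Ids went the other way, 8.67, 8.49, 8.15 and 8.9 against 8.93, 8.99, 8.59 and 8.93, without passing (0.31 ± 0.11). Arsb (6.38, 6.53, 5.75 and 6.28 against 6.01, 6.1, 6.42 and 6.45) had 0.01 ± 0.13 at the brighter probe and -0.07 ± 0.12 at the other.

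Among lipid-handling genes Psap, Asah1 and Gm2a fell beside Smpd1. Gm2a was at 8.58, 8.83, 8.57 and 8.45 in WT and 7.79, 7.98, 8.5 and 7.88 in APP/PS1, with replicate 3 nearly level and a difference of -0.57 ± 0.11. Psap was at 13.96, 14.46, 13.57 and 14.34 against 13.02, 14.09, 13.4 and 12.77, lower on 4 of 4 arrays by 0.17 to 1.57, and the fitted value was -0.76 ± 0.19. Npc2 stayed close, 11.33, 11.35, 11.16 and 11.33 against 11.16, 10.92, 11.1 and 11.12, and did not pass (-0.22 ± 0.08).

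The membrane proteins fell in 5 of 6 cases, all but Lamp1. Lamp2 was at 12.63, 12.75, 12.94 and 12.57 in WT and 11.49, 11.7, 12.73 and 11.64 in APP/PS1. Replicates 1, 2 and 4 of APP/PS1 lay below all WT samples and replicate 3 within their range, and the fit gave -0.83 ± 0.11 (adjusted p = 0.000473); the second probe gave -0.30 ± 0.12 and did not pass. Cln3 had the same layout, 10.18, 10.32, 10.77 and 10.29 against 9.57, 9.66, 10.28 and 9.56, at -0.62 ± 0.08, and its 3 probes all passed with values of -0.78 to -0.42. Npc1 (9.4, 9.67, 8.54 and 9.43 against 7.92, 8.83, 8.66 and 8.44) changed by -0.80 ± 0.19, lower on 3 of 4 arrays. Mcoln1 (12.54, 12.41, 12.7 and 12.39 against 12.05, 12.26, 12.05 and 11.97) had separate groups and changed by -0.43 ± 0.09. Scarb2, the receptor that carries glucocerebrosidase to lysosomes, changed by -0.39 ± 0.09.

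Of the 7 pump subunits 2 fell in astrocytes, both of the membrane part. Atp6v0e read 14.09, 14.26, 13.94 and 14.01 in WT and 13.39, 13.43, 13.85 and 13.35 in APP/PS1, separate groups at -0.57 ± 0.11 (adjusted p = 0.00292). Atp6v0d1 read 11.47, 11.78, 10.94 and 11.35 against 10.85, 11.02, 11.06 and 11.21, lower on 3 of 4 arrays (-0.35 ± 0.09). The V1 subunits that rose in microglia did not pass here: Atp6v1a had 11.22, 11.19, 10.82 and 11.21 against 10.88, 10.97, 11.11 and 11.22, and Atp6v1c1 had 9.75, 9.81, 9.38 and 9.75 against 9.7, 9.6, 9.62 and 9.87. Their differences were -0.06 ± 0.10 and 0.02 ± 0.07.

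Of the 4 remaining genes 3 fell and Grn rose. Tpp1 was at 10.69, 10.94, 10.85 and 10.76 in WT and 9.63, 9.98, 10.44 and 9.9 in APP/PS1, separate groups at -0.82 ± 0.12 (adjusted p = 0.000666). Acp2 was at 9.44, 9.75, 9.26 and 9.11 against 8.42, 8.56, 9.2 and 8.76, with -0.65 ± 0.13 and with -0.77 ± 0.08 at its second probe. Lgmn was at 13.01, 13.1, 12.85 and 13.2 against 12.67, 12.47, 12.67 and 12.26, with no overlap and -0.52 ± 0.14, a call lost in 2 of 4 fits that left out an array. Grn was at 11.15, 11.06, 10.76 and 11.18 against 11.72, 11.26, 10.91 and 11.33, higher on each array by a small amount (0.27 ± 0.09, adjusted p = 0.0424); its call was lost in 3 of 4 fits with an array left out, at adjusted p up to 0.192.

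The astrocyte counts also depended on the pairing and on the fit shared with the microglia arrays. Without the array as a block 9 of 40 genes passed, all 9 lower (Gaa, Neu1, Sgsh, Arsa, Smpd1, Cln3, Atp6v0e, Tpp1 and Acp2), and with the astrocyte arrays fitted alone 7, all 7 lower. Leaving out 1 array gave 20 to 23 (23 without replicate 3); calls for Galns, Asah1, Atp6v0d1 and Grn were each lost in 3 of 4 such fits, those for Hexa, Npc1 and Lgmn in 2 of 4 and that for Psap in 1.

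**Figure D4:**
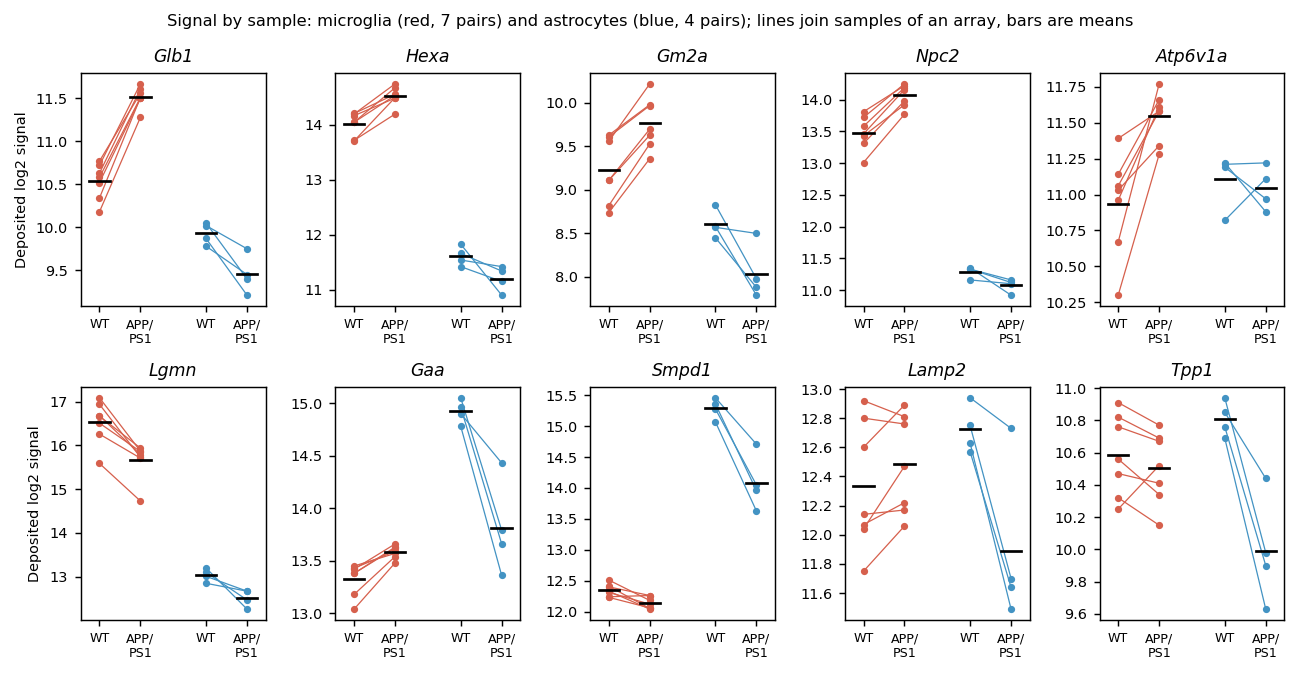
Deposited log2 signal (y axis) of 10 lysosomal genes in every sample, WT and APP/PS1, for microglia (red, 7 pairs) and astrocytes (blue, 4 pairs); lines join samples of an array and black bars are group means. Glb1, Hexa, Gm2a, Npc2 and Atp6v1a run upward in microglia, Lgmn downward in both cell types, and Gaa, Smpd1, Lamp2 and Tpp1 downward in astrocytes.

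The genotype difference itself was compared between the cell types, as the astrocyte value minus the microglia value of the same fit. It passed for 23 of 40 genes (57.5%, against 26.6% of 22386 genes), 22 with the lower value in astrocytes (55.0%, against 13.2%) and 1, Ids, with the higher (2.50%, against 13.4%). The largest were Glb1 at -1.48 ± 0.11 (adjusted p = 5.19e-05), Gaa at -1.40 ± 0.15, Gm2a at -1.13 ± 0.14 and Lamp2 at -1.01 ± 0.14. Ids was at 0.63 ± 0.14. All 40 genes lay above the median gene, and the share passing among such genes alone is not given for this comparison. Within a cell type that share was above that of all genes (41.8% against 19.7% in microglia, 61.2% against 33.4% in astrocytes). Of the 23 calls, those for Sgsh, Scarb2 and Lamp1 were lost in 10, 9 and 7 of 11 fits that left out an array. Each difference was taken within arrays. The slides also separate the cell types here, and the part of slide in these values was not tested.

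By their calls, 6 genes rose in microglia and fell in astrocytes: Hexa, Glb1, Fuca1, Galns, Gm2a and Mcoln1. For all 6 the difference between cell types passed. Leaving out single arrays, the Galns call was lost in 6 of 7 microglia fits and 3 of 4 astrocyte fits. The Mcoln1 call was lost in 4 of 7 microglia fits and the Hexa call in 2 of 4 astrocyte fits. The astrocyte calls of all 6 were lost without the array as a block and again with the astrocyte arrays fitted alone. All but that of Gm2a were also lost without the arrays whose samples differed in the Y-linked gene Eif2s3y. A further 8 genes rose in microglia with no call in astrocytes, and for 6 of them (Gusb, Naglu, Ppt1, Npc2, Atp6v1a and Atp6v1c1) the difference passed. Another 11 fell in astrocytes with no call in microglia, 7 of them (Gaa, Smpd1, Lamp2, Scarb2, Cln3, Atp6v0e and Tpp1) with a difference that passed. These groups hold for the brightest probes, and the share of all genes with each of these patterns was not counted. The dimmer Gaa probe also rose in microglia (0.63 ± 0.10). The dimmer Lamp2 probe rose in microglia (0.55 ± 0.09) and did not pass in astrocytes (-0.30 ± 0.12). The dimmer probes of Cln3 kept the pattern, and at that of Asah1 the difference passed too (-0.63 ± 0.10).

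In both cell types 7 genes fell: Gla, Idua, Neu1, Sgsh, Arsa, Lgmn and Acp2. The share of all genes that fell in both was not counted. Singly, 11.4% of all genes fell in microglia and 18.0% in astrocytes, or 25.4% and 33.4% of genes above the median gene. At the brightest probes, their differences between cell types passed only for Neu1 (-0.49 ± 0.11) and Sgsh (-0.35 ± 0.11). That of Sgsh had the opposite sign at its dimmer probe (0.66 ± 0.12) and lost its call in 10 of 11 fits that left out an array. At the dimmer probes of Idua (-0.66 ± 0.11) and Acp2 (-0.45 ± 0.10) the difference passed as well. The dimmer Idua probe was level in microglia (-0.02 ± 0.06), so its fall in both rests on the brighter probe. No gene rose in both cell types. The 6 genes without a call in either were Man2b1, Manba, Lipa, Lamp1, Atp6v1b2 and Atp6v1h. Without the array as a block the difference passed for 10 genes: Hexa, Gaa, Glb1, Naglu, Fuca1, Smpd1, Ppt1, Gm2a, Npc2 and Atp6v0e.

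**Figure D5:**
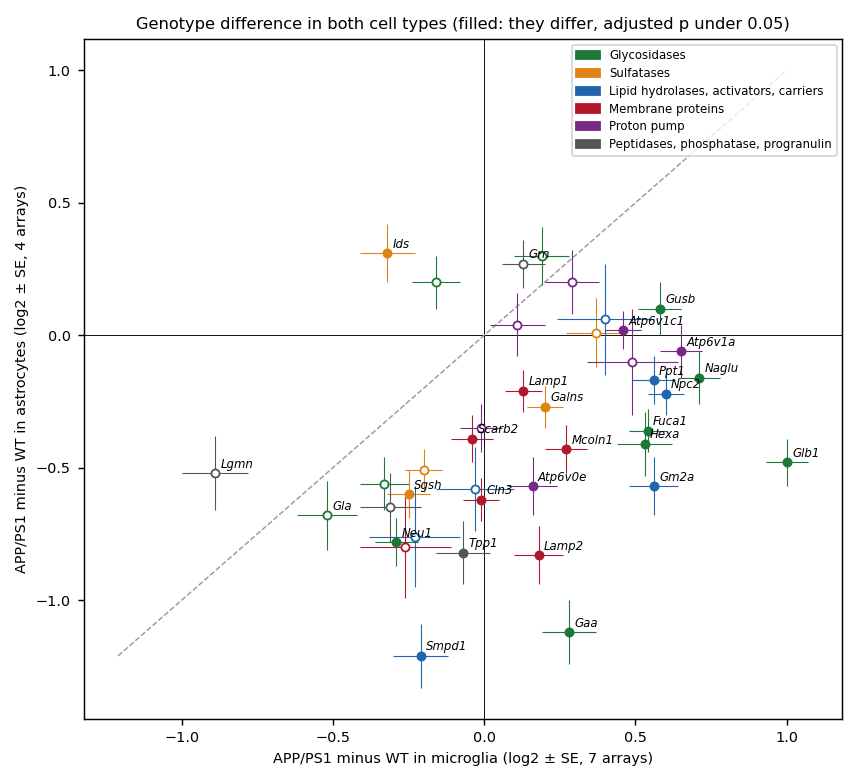
APP/PS1 minus WT (log2 ± SE) in microglia (x axis, 7 arrays) and astrocytes (y axis, 4 arrays), 1 point a gene, coloured by class and filled where the difference between the cell types passed; the dashed line marks equal values. Of the 40 points 35 lie below the line, with Glb1 farthest right and Smpd1 and Gaa lowest.

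Other lysosomal genes were read from 3 lists (log2 differences follow, each past the test by limma). Their counts stand beside 8.27% higher and 11.4% lower of all genes in microglia and 15.4% higher and 18.0% lower in astrocytes, and several were near those shares, such as 4 lower of 20 pump genes in astrocytes. The list of hydrolases also holds Gnptab, Gnptg, Nagpa, Hgsnat, Sumf1 and Sumf2, which are not lysosomal hydrolases themselves. Of the 25 genes measured in it, 9 rose and 4 fell in microglia, and 3 rose and 13 fell in astrocytes. Those with the smallest adjusted p in microglia were Dpp7, a dipeptidyl peptidase (1.12), Hpse, heparanase (3.94), Gnptab, which tags hydrolases for transport to lysosomes (1.18), and Plbd2 (0.53). In astrocytes they were Dpp7 (-0.60), Smpdl3a (-1.43), Dnase2a (-0.64) and Plbd2 (-0.45).

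Of 33 further membrane proteins and transporters, 6 rose and 6 fell in microglia and 3 rose and 15 fell in astrocytes. In microglia Cd63 (0.96) and Mcoln2 (2.14) rose and Cd164 (-0.89) and Sort1 (-0.61), a sorting receptor, fell. In astrocytes the peptide transporter Abcb9 (-1.93), the cystine exporter Ctns (-0.80) and the amino acid sensor Slc38a9 (-0.63) fell, and Laptm5 (2.10), which is also in the microglia marker list, rose. Of 20 further pump genes 2 rose and 4 fell in microglia, among them Atp6v0d2 (4.63) and Atp6v0e2 (0.88) upward and Atp6v0a2 (-0.80) and Rogdi (-0.49) downward. In astrocytes 4 fell, Atp6v0a1 (-0.72), Atp6v0b (-0.36), Dmxl2 (-0.36) and Atp6ap2 (-0.34), and none rose.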

How the data were processed

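Values came from the deposited series table of dual-colour Agilent arrays, 1 column a sample. They are log2 signals normalized by the authors, per the labels and from the values; the 22 columns differed by at most 0.072 at any quantile. The submitters' processing notes name limma, and how background was corrected and arrays normalized is not given in the sources used here. Of 43020 probes, 33026 named 1 gene, 0 several and 9994 none; symbols came from the platform annotation, checked against RefSeq (GRCm38.p6), which changed 0.

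Each gene was read from its brightest probe. Limma 3.58.1 (R 4.3.3, statmod 1.5.0) was fitted to all 22 samples with array as a block and dye as a covariate, and p-values were adjusted by Benjamini-Hochberg over all genes (threshold 0.05). WT cell types were compared with array as a random block. Python 3.11.15 with pandas 2.3.3 made the summaries, and the fit was tested on simulated data. For genotype, p-values measure the spread of differences within arrays, after the dye term. Both cell types share 1 estimate of that spread per gene, so astrocyte p-values also draw on the 7 microglia arrays. For the WT cell types, p-values measure the spread between samples. The number of samples limits the precision.

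The labels place the samples of 1 number on 1 array. Their deviations from the group means correlated with a median of 0.47 among microglia (0.37 to 0.63) and 0.23 among astrocytes (0 to 0.50). Between samples of different arrays the medians were -0.20 (-0.53 to 0.51) and -0.12 (-0.47 to 0.42), so the ranges overlapped in both cell types.

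Members and lists were chosen with earlier results of these data known. Values by sample are printed for up to 4 genes a class with the largest differences among those past the test in either cell type or between them, and for genes whose probes disagreed in sign; for other lysosomal genes, up to 4 a list and cell type with the smallest adjusted p are named. Alternatives covered the block, dye term, scaling, probe choice, filters, slides, sample subsets and arrays left out in turn.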

Additional observations from a re-analysis of the deposited data

Results flagged for a closer look

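A sample far from the rest of its group was found in 13 of 160 groups of samples by Dixon's criterion, where chance alone gives about 5%, or 8.0. In microglia these were the APP/PS1 sample of replicate 4 for Glb1 (11.28, others 11.5 to 11.67) and Ppt1 (10.28, others 10.55 to 10.71), the WT sample of replicate 4 for Ppt1 (9.45, others 9.96 to 10.29), the APP/PS1 sample of replicate 6 for Lamp1 (16.15, others 15.75 to 15.91) and that of replicate 7 for Lgmn (14.73, others 15.71 to 15.94). In astrocytes, 7 of 8 came from replicate 3. Its APP/PS1 sample was high for Lamp2 (12.73, others 11.49 to 11.7), Cln3 (10.28, others 9.56 to 9.66) and Atp6v0e (13.85, others 13.35 to 13.43) and low for Ids (8.59, others 8.93 to 8.99). Its WT sample was low for Npc2 (11.16, others 11.33 to 11.35), Atp6v1a (10.82, others 11.19 to 11.22) and Atp6v1c1 (9.38, others 9.75 to 9.81). The remaining one was the APP/PS1 sample of replicate 1 for Atp6v1h (8.78, others 9.21 to 9.29).

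The genotype difference differed between astrocytes and microglia, by limma's test of the difference, for 23 genes (log2, astrocytes minus microglia). Among glycosidases these were Glb1 (-1.48), Gaa (-1.40), Hexa (-0.94), Fuca1 (-0.90), Naglu (-0.87), Neu1 (-0.49) and Gusb (-0.48). Among sulfatases they were Ids (0.63), Galns (-0.47) and Sgsh (-0.35). The lipid-handling genes were Gm2a (-1.13), Smpd1 (-0.99), Npc2 (-0.82) and Ppt1 (-0.72). The membrane proteins were Lamp2 (-1.01), Mcoln1 (-0.69), Cln3 (-0.61), Scarb2 (-0.36) and Lamp1 (-0.34). The pump subunits were Atp6v0e (-0.72), Atp6v1a (-0.71) and Atp6v1c1 (-0.43), and the peptidase was Tpp1 (-0.75).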

How the results depend on the processing

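Against 22 genes called in microglia (14 higher, 8 lower), 25 in astrocytes (24 lower) and 23 for the difference (22 lower), the fit with no replicate block called 10 (9 and 1), 9 (9 lower) and 10 (10 lower). Fits without the arrays whose samples differed by over 2 (log2) in the Y-linked gene Eif2s3y, 2 of each cell type, called 12 genes in microglia (1 lower) and 14 in astrocytes (14 lower). The lower gene in microglia was Lgmn. Among genes on chromosome X, Gla lost its call in both cell types, and Ids and Atp6ap1 lost theirs in microglia. Lamp2, also on chromosome X, kept its call in astrocytes. Each cell type fitted alone gave 7 in astrocytes (7 lower). The 8 lower genes in microglia became 4 without the dye term and 4 after quantile normalization. Slide 1 alone gave 6 (6 higher, 0 lower) and slide 2 alone 0 by limma, with 21 and 14 genes at an unadjusted p under 0.05; these fits have fewer arrays. Leaving out 1 replicate gave 14 to 17 in microglia (10 to 13 higher, 3 to 6 lower), 20 to 23 in astrocytes (19 to 23 lower) and 20 to 29 for the difference (19 to 28 lower, the most without astrocyte replicate 3). Signs reversed for Lipa in astrocytes without replicate 4 (-0.31, range over arrays left out -0.31 to 0.22), for Sgsh's difference with the mean of all probes (0.15), and after median centring for Manba (-0.38) and Lamp1 (-0.07) between WT cell types. Apart from the smaller fits, the cause was not tested. The 27 genes that differed between WT cell types stayed between 20 and 29 under all alternatives run.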

Other observations

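The spread between microglia samples of a group was widest in a pair of pump genes. The median SD over the 40 lysosomal genes was 0.27 (log2) among the 7 WT microglia samples, against 0.40 over 16310 genes measured in all samples, and 0.19 among the 7 APP/PS1 microglia samples, against 0.38. In both groups the widest spreads were in Atp6v1b2 (SD 0.87 in WT and 0.61 in APP/PS1) and Atp6v1h (0.71 and 0.55), subunits of the V1 part. These spreads followed the slides. In WT microglia Atp6v1b2 was at 5.46 to 6.3 on slide 1 (replicates 2 to 5) and 7.29 to 7.75 on slide 2 (replicates 1, 6 and 7), and in APP/PS1 microglia at 6.38 to 7.07 and 7.57 to 7.88. Atp6v1h was at 6.95 to 8.02 and 8.61 to 8.95 in WT, and at 7.44 to 8.09 and 8.74 to 8.85 in APP/PS1. The narrowest were Cln3 in WT (0.10) and Gaa in APP/PS1 microglia (0.06). In astrocytes the spread was widest for Idua in both genotypes (0.64 in WT and 0.73 in APP/PS1), with a group median of 0.19 and 0.25 over the 40 genes.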
